A study of Mus musculus with 3 samples.

Results

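The mitochondrial ribosomal protein genes encode the protein part of the ribosome inside mitochondria. They were taken as all genes whose symbol begins with Mrpl or Mrps followed by a number and that have at least 1 transcript annotated as protein coding. The rule found 78 genes among the 55536 genes of the deposited tables. The study sequenced polyadenylated RNA of macrophages grown from bone marrow of C57BL/6J mice, an inbred laboratory strain. All 3 libraries carry the label of 100 ng/ml lipid A, the part of bacterial lipopolysaccharide sensed by Toll-like receptor 4, at 0 minutes, which is the start of a stimulation. They form 1 group with no second group, so every result is a description, with no test, and spreads are over the 3 libraries. Sex and age were not collected. Each library has a biosample of its own in the labels, but all name 1 donor record, and separate animals are not stated, so the spread between libraries may be partly technical.

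The mitochondrial ribosome translates the few messenger RNAs that the mitochondrial genome encodes, all of them for subunits of the respiratory chain and the ATP synthase. Its ribosomal RNAs are made inside mitochondria, while its proteins are encoded in the nucleus, made in the cytosol and imported. Some of the proteins descend from those of bacterial ribosomes, and others were gained in mitochondria. Symbols with L usually name proteins of the large subunit, which forms peptide bonds, and symbols with S those of the small subunit, which decodes the messenger RNA. Exceptions are Mrps18a and Mrps30, which sit in the large subunit, and Mrps36, which is a subunit of the 2-oxoglutarate dehydrogenase complex. By these roles the 78 genes divided into 51 for the large subunit, 26 for the small subunit and Mrps36. They lay on 17 chromosomes, with 11 genes on chromosome 11 and 8 on chromosome 17.

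Genes of mitochondrial function are known to share promoter motifs of NRF1 (nuclear respiratory factor 1), of ETS family factors such as GABP (also called NRF2), and of YY1. The promoters below are that of the most abundant mitochondrial ribosomal protein gene with the NRF1 motif, which holds the ETS motif too, and those of the next most abundant gene with the ETS motif and of the most abundant with the YY1 motif. They are RefSeq sequences on build GRCm38.p6, read on the gene's strand from 250 bases before the start annotated there. They run 30 bases past it for Mrps21 and Mrpl33 and 36 bases past it for Mrpl42. For Mrpl33 this start lies inside the GENCODE M21 gene coordinates given further below, not at their first base. Capitals mark letter matches to GCGCANGCG (NRF1), CCGGAAG (ETS) or AANATGGCG (YY1) on either strand.
Mrps21 (chr3:95871485-95871764, minus strand; NRF1 match 90 bases before and ETS match 18 bases after the start): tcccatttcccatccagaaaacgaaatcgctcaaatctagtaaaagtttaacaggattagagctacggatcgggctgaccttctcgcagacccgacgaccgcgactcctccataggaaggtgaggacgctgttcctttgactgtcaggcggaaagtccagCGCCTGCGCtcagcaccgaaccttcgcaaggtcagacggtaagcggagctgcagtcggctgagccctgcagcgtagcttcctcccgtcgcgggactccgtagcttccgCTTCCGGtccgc
Mrpl33 (chr5:31613701-31613980, plus strand; ETS match 3 bases before the start): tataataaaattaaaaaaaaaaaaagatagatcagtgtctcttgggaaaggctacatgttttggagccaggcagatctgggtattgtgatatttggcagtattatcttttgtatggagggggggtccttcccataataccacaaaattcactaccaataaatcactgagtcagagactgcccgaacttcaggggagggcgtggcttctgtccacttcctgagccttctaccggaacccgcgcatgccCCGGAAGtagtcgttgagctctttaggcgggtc
Mrpl42 (chr10:95501914-95502199, minus strand; YY1 match 27 bases after the start): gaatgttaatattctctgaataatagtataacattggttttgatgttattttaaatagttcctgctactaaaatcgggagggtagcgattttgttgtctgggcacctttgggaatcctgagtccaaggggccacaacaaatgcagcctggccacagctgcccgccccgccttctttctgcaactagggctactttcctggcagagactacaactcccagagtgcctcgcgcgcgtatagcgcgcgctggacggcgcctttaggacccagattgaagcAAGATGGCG

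Promoters of 250 bases before to 50 after the start were matched for 69 of the 78 genes. The ETS letters were found in 25 of these 69 promoters (36.2%), against 21.3% of the promoters of protein-coding genes detected in these libraries. The NRF1 letters were found in 16 (23.2%), against 15.8%. The YY1 letters were found in 11 (15.9%), against 6.28%, and in 9 of the 11 the match began no more than 20 bases before the start or lay after it. At least 1 of the 3 motifs was found in 42 promoters (60.9%), against 37.4% of detected and 21.8% of all matched protein-coding promoters. In 10 promoters there were matches to more than 1 of these motifs, as in Mrps21, Mrpl17, Mrps18b and Mrps27, and 27 promoters held none. Matches to different motifs among these 3 did not overlap in any of the 69 promoters. The cytosolic ribosomal protein genes held at least 1 of the 3 motifs in 59.4% of 64 promoters. They had the NRF1 letters in 14.1%, the ETS letters in 39.1% and the YY1 letters in 10.9%. Shares of the ETS and YY1 letters above those of detected genes were thus not particular to the mitochondrial set. The letters GGGCGG of SP1 were found in 34 promoters (49.3%) of mitochondrial ribosomal protein genes, against 66.2% of detected protein-coding genes, and the letters TATAAA in 4 (5.80%), against 6.42%. The E-box letters CACGTG were found in 5 (7.25%), against 11.0% of detected protein-coding genes, and the CRE letters TGACGTCA in 2 (2.90%), against 3.48%. These are matches of letters on both strands, not sites of measured binding.

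The libraries held 27946070, 29779410 and 53447437 expected counts in replicates 1, 2 and 3. Expected counts are estimates of reads per gene that need not be whole. The 78 genes took 0.173%, 0.135% and 0.128% of these counts, and a single gene had between 109 counts (Mrps28, replicate 3) and 3347 counts (Mrps15, replicate 3). Levels are given as TPM, an abundance that is divided by transcript length and scaled to the same sum in each library, so that it can be compared between genes. All 8 macrophage markers were detected, at a median of 707 TPM, while 0 of 6 markers of T and B cells and 0 of 6 of stroma and endothelium reached 1 TPM in every library. Of 6 neutrophil markers 3 were detected, with a sum over the list of 167, 34.6 and 326 TPM in replicates 1, 2 and 3. The highest of the list averaged 96.6 TPM, while Ly6g was at 0 in each library. The 3 neutrophil markers with enough counts to compare libraries were each highest in replicate 3.

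Every one of the 78 genes was expressed, with at least 1 TPM in each library, against 44.8% of all protein-coding genes. Of them, 69 had at least 10 TPM in each library, and 72 had a mean between 10 and 100 TPM. The shares of detected protein-coding genes within these limits were not computed. The median over the genes of the mean TPM was 32.2, against 19.6 for the detected protein-coding genes. The quartiles were 21.2 and 45.4 TPM for the set and 8.39 and 48.5 TPM for the detected protein-coding genes. By library the genes' median was 40.3, 28.4 and 22.7 TPM in replicates 1, 2 and 3. Although the proteins are built into 1 particle, the transcript levels were not equal: the highest mean was 28.4 times the lowest, and the upper quartile 2.14 times the lower. In bulk RNA, fewer cells of a type and less RNA per cell cannot be told apart, so these are averages over the culture. The median mean level was 33.4 TPM for the large subunit and 26.3 TPM for the small subunit. Proteins with a bacterial counterpart had a median of 33.5 TPM (46 genes), and those gained in mitochondria 25 TPM (31 genes). Within the large subunit these medians were 37.5 TPM (30 genes) and 27.1 TPM (21 genes), and within the small subunit 27.4 TPM (16 genes) and 21.9 TPM (10 genes). By library the large subunit had medians of 42.8, 31.8 and 24.0 TPM and the small subunit 32.2, 21 and 17.8 TPM in replicates 1, 2 and 3. Proteins with a bacterial counterpart had 44.3, 33.8 and 23.2 TPM, and those gained in mitochondria 32.7, 22.7 and 20.7 TPM. In each of these comparisons, also within each subunit, the first median was the higher in all 3 libraries. The differences were not tested, and levels within each class overlapped widely. The median transcript length was 839 bases for proteins with a bacterial counterpart and 1079 bases for those gained in mitochondria. It was 861.5 and 884 bases within the large subunit and 839 and 1093 bases within the small subunit. The part of length in the class differences was not tested. Mrps18a and Mrps18b, relatives of Mrps18c, were classed as gained in mitochondria.

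A mean above 100 TPM was reached by 3 genes. Mrps21, the mitochondrial member of a bacterial small-subunit protein family (chr3:95862634-95871519, minus strand, in GENCODE M21 on mm10), had 191, 251 and 199 TPM in replicates 1, 2 and 3, with a mean of 214 ± 32.7 (SD, n = 3). Mrps21 was above every other gene of the set in each library. Mrpl42, a large-subunit protein gained in mitochondria (chr10:95480805-95501940, minus strand), had 151, 71.4 and 162 TPM, so that replicate 2 was less than replicates 1 and 3. Mrpl33, whose bacterial relative lies near the exit site of transfer RNA (chr5:31596935-31664384, plus strand), had 143, 102 and 55.6 TPM. In the order of all 78 genes, Mrps21 and Mrpl42 were the only neighbours whose means differed by more than the sum of their SDs, so other adjacent ranks could not be told apart.

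Among large-subunit genes the next highest were Mrpl52, with 156, 80.5 and 29.3 TPM in replicates 1, 2 and 3, and Mrpl17, with 137, 66.9 and 28.9 TPM. Both were highest in replicate 1 and lowest in replicate 3. Mrpl30 averaged 75.1 ± 17.1 TPM and Mrpl27, a protein near the peptidyl transferase centre, 65.3 ± 18 TPM (SD, n = 3). At the low end of the large subunit stood Mrps30 with 9.10, 7.71 and 5.78 TPM in replicates 1, 2 and 3. Mrpl19 had 13.1, 7.26 and 6.29 TPM, and Mrpl47, which lies at the exit of the peptide tunnel, 11.8, 9.00 and 6.81 TPM. These were the only 3 genes of the set with a mean under 10 TPM. Mrpl1, of the mobile L1 stalk, followed with 12.3 ± 1.36 TPM.

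Among small-subunit genes Mrps15 came after Mrps21, with 66.5, 64.0 and 124 TPM in replicates 1, 2 and 3, highest in replicate 3. Mrps18c averaged 73.3 ± 15.1 TPM, Mrps33 52.2 ± 2.17 TPM, Mrps23 50.6 ± 16.9 TPM and Mrps17 44.6 ± 18 TPM (SD, n = 3). The lowest were Mrps27, an RNA-binding protein of the pentatricopeptide repeat family, at 11.7 ± 5.49 TPM, Mrps31 at 13.2 ± 1.42 TPM, Mrps35 at 13.4 ± 2.49 TPM and Mrps16 at 15.0 ± 6.79 TPM. Mrps36, outside the ribosome, had 72.7, 67.7 and 49.2 TPM.

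**Figure D1:**
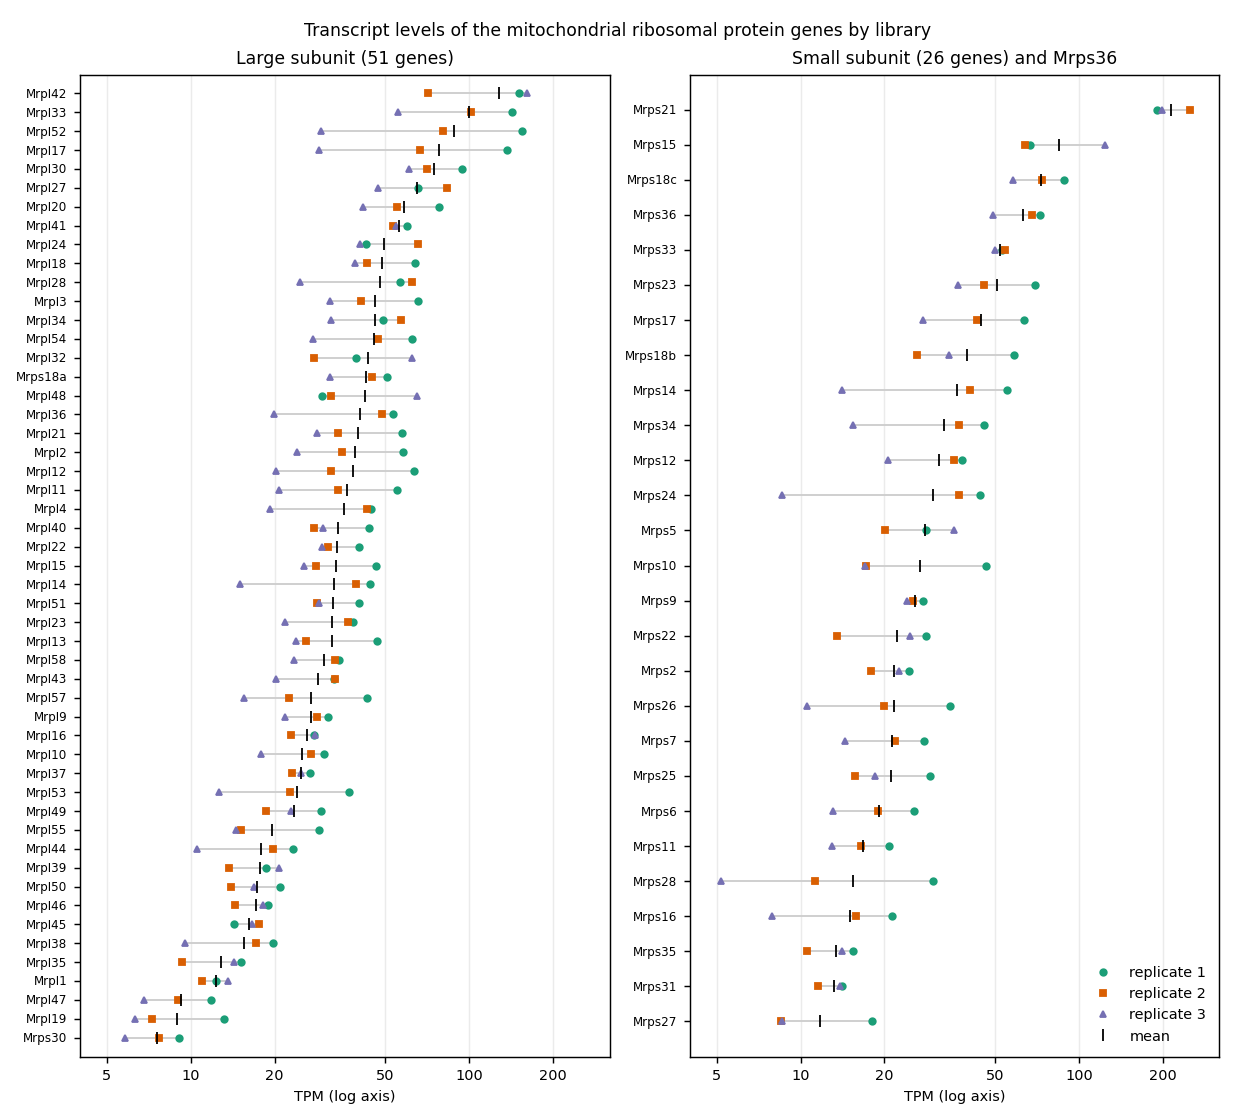
TPM (log axis) of each of the 78 genes in replicates 1 (circles), 2 (squares) and 3 (triangles), ordered by the mean (bar) within the large subunit (left) and the small subunit with Mrps36 (right). Mrps21 stands alone at a mean of 214 TPM, most genes lie between 10 and 100 TPM, and replicate 1 is the highest library for 62 of the 78 genes. The like share of all genes was not computed on TPM.

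Genes of known place in the ribosome were found from the upper to the lower end of this range. At the peptidyl transferase centre, Mrpl2 averaged 39.1 ± 17.3, Mrpl3 46.0 ± 17.5 and Mrpl16 26.2 ± 2.83 TPM (SD, n = 3). The stalk that recruits translation factors had Mrpl12 at 63.3, 31.8 and 20.2 TPM in replicates 1, 2 and 3, with its base proteins Mrpl10 at 25 ± 6.34 and Mrpl11 at 36.5 ± 17.3 TPM. Mrpl12 was thus above Mrpl10 and Mrpl11 in replicate 1, and below Mrpl11 in replicates 2 and 3. Along the peptide tunnel, Mrpl22 averaged 33.6 ± 5.72, Mrpl24 49.6 ± 13.7, Mrpl39 17.7 ± 3.57 and Mrpl44 17.9 ± 6.65 TPM. Mrpl45, which holds the ribosome at the inner membrane, averaged 16.2 ± 1.67 TPM. Mrpl58, a peptidyl-tRNA hydrolase that also frees stalled ribosomes, averaged 30.2 ± 5.94 TPM. In the small subunit, Mrps12 of the decoding centre averaged 31.4 ± 9.47 TPM, Mrps5 at the entry of the messenger RNA 27.9 ± 7.67, Mrps2 at its exit 21.6 ± 3.33 and Mrps7 of the head 21.4 ± 6.69 TPM.

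The S18 family is a group of 3 related proteins that take different places in the ribosome. Mrps18c, the counterpart of the bacterial protein, had 88.3, 73.5 and 58.1 TPM in replicates 1, 2 and 3. Mrps18a, in the large subunit, had 50.9, 45.0 and 31.7 TPM. Mrps18b, in the small subunit, had 58.6, 26.3 and 34.2 TPM. Mrps18c was the highest of the 3 in each library, and the order of Mrps18a and Mrps18b was not the same in every library.

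The other genes of mitochondrial translation were mostly less abundant. The 5 mitoribosomal proteins whose symbols fall outside the rule had a median of 24.6 TPM. Of them Chchd1 averaged 64.6 ± 27.2, Aurkaip1 58.9 ± 12.4, the GTP-binding protein Dap3 24.6 ± 8.78, the RNA-binding protein Ptcd3 21.5 ± 9.13 and Gadd45gip1 7.91 ± 3.79 TPM (SD, n = 3). The 12 translation factors had a median of 10.2 TPM, from the elongation factor Tufm at 40.6 ± 14.1 TPM to the release factor relative Mtrf1l at 5.15 ± 2.12 TPM. The 27 factors of ribosome assembly and ribosomal RNA modification had a median of 8.29 TPM, with 25 detected, and ran from Rbfa at 58.6 ± 6.31 TPM to Ybey at 1.37 ± 0.421 TPM. The 17 mitochondrial aminoacyl-tRNA synthetases, which charge transfer RNAs, had a median of 6.99 TPM, with 16 detected. They ran from Lars2 at 385, 341 and 80.1 TPM in replicates 1, 2 and 3 down to Mars2 at 0.917 ± 0.450 TPM. The 6 genes of mitochondrial transcription and RNA stability had a median of 16.7 TPM, from Slirp at 70.4 ± 34.6 TPM to the elongation factor Tefm at 8.41 ± 3.50 TPM.

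Against 2 larger sets, the mitochondrial ribosomal protein genes were less abundant. Their median of 32.2 TPM stood beside 114 TPM for nuclear genes of the respiratory chain (86 genes, 78 detected) and 713 TPM for cytosolic ribosomal protein genes (84 genes, 81 detected). In sum the 78 genes had 3711, 2854 and 2362 TPM in replicates 1, 2 and 3. The mitochondrial ribosomal RNAs that these proteins bind were also listed in these libraries of polyadenylated RNA. The 12S RNA, mt-Rnr1, had 694, 1175 and 2283 TPM, and the 16S RNA, mt-Rnr2, had 645, 1333 and 2231 TPM in replicates 1, 2 and 3. The library with the most mitochondrial ribosomal RNA, replicate 3, was the one with the lowest sum of the proteins' transcripts, and replicate 1 the reverse. TPM share a fixed total, in which mitochondrially encoded messenger RNAs took 160039 TPM in replicate 3. TMM-scaled counts are set level on the bulk of genes. On them the 78 genes had median log2 ratios to the other libraries of 0.44, -0.20 and -0.20 in replicates 1, 2 and 3. The ribosomal RNAs had -1.49, -0.16 and 1.65. Replicate 1 thus kept the highest median of the 78 genes and the lowest of the ribosomal RNAs, while the 78 genes had like medians in replicates 2 and 3. The part of the fixed total in the pattern was not tested.

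**Figure D2:**
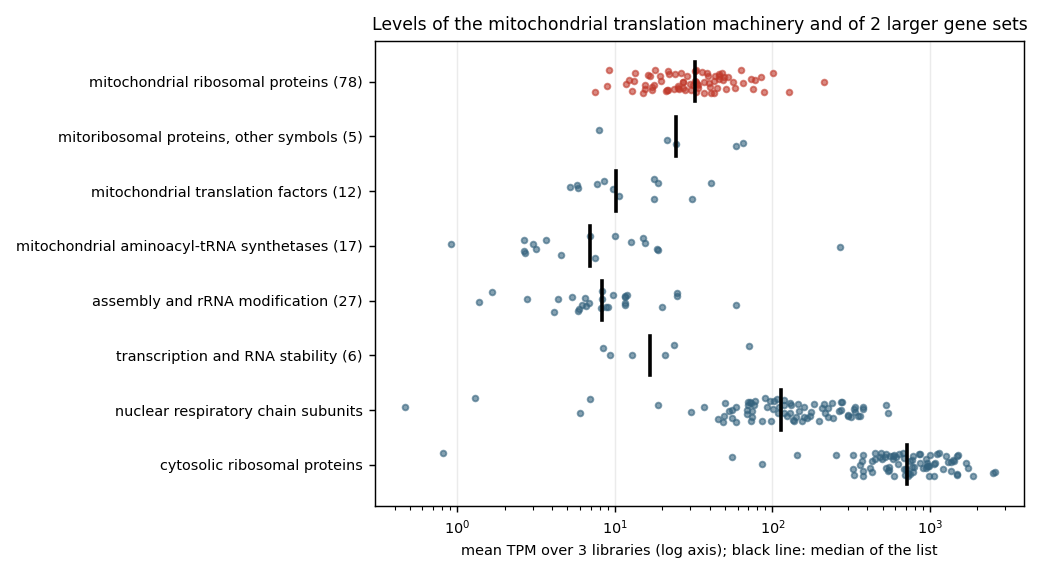
Mean TPM over 3 libraries (log axis) of each gene in 8 gene lists, 1 list per row, with the list's median as a black line; 6 respiratory chain and 2 cytosolic ribosomal genes at or under 0.1 TPM are not drawn. The mitochondrial ribosomal protein genes (top row, median 32.2 TPM) lie above the synthetases and assembly factors and below the respiratory chain and cytosolic ribosomal sets.

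To compare libraries, counts were scaled by the TMM method, which sets the bulk of genes level between libraries, and each library was expressed as a log2 ratio to the geometric mean of the other 2. The 78 genes had a median log2 ratio of 0.44 in replicate 1, -0.20 in replicate 2 and -0.20 in replicate 3, where the 11886 genes compared, which passed a filter on low counts and include all 78, had 0.00, 0.00 and 0.01. Of the 78 genes 51 were highest in replicate 1, 7 in replicate 2 and 20 in replicate 3, where 34.7%, 32.3% and 33.0% of all genes compared were highest. They were lowest in replicate 1 in 4 cases, in replicate 2 in 37 and in replicate 3 in 37, where 34.5%, 32.9% and 32.7% of all genes compared were lowest. The large and the small subunit had nearly the same median in replicate 1 (0.45 and 0.44), with -0.22 and -0.19 in replicate 2 and -0.23 and -0.10 in replicate 3. Without replicate 1, the genes were nearly level between replicates 2 and 3, with a median log2 ratio of 0.0037 of replicate 3 to replicate 2. On TPM, with a pseudocount of 1, the medians were 0.53, -0.03 and -0.51 for the 78 genes and 0.10, 0.12 and -0.23 for the genes compared, which leaves 0.43, -0.16 and -0.28 relative to all genes. On that scale 62 genes were highest in replicate 1, 8 in replicate 2 and 8 in replicate 3. The like shares of all genes compared were not computed on TPM, where the medians of all genes also differed between libraries.

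The nuclear respiratory chain genes had medians of 0.39, 0.13 and -0.46 in replicates 1, 2 and 3, and the cytosolic ribosomal protein genes 0.36, 0.37 and -0.77. All 3 sets were above the bulk of genes in replicate 1 and below it in replicate 3, while in replicate 2 the mitochondrial set was below and the other sets above it. The sets come from the same 3 libraries, and with 1 group this difference was not tested. Replicate 3 was also the deepest library and had the highest sum of neutrophil markers and of mitochondrially encoded messenger RNAs, with 160039 TPM against 51435 in replicate 1 and 57116 in replicate 2. Those messenger RNAs share reads with nuclear copies, so their level is uncertain. The part of these values in the library differences was not tested.

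**Figure D3:**
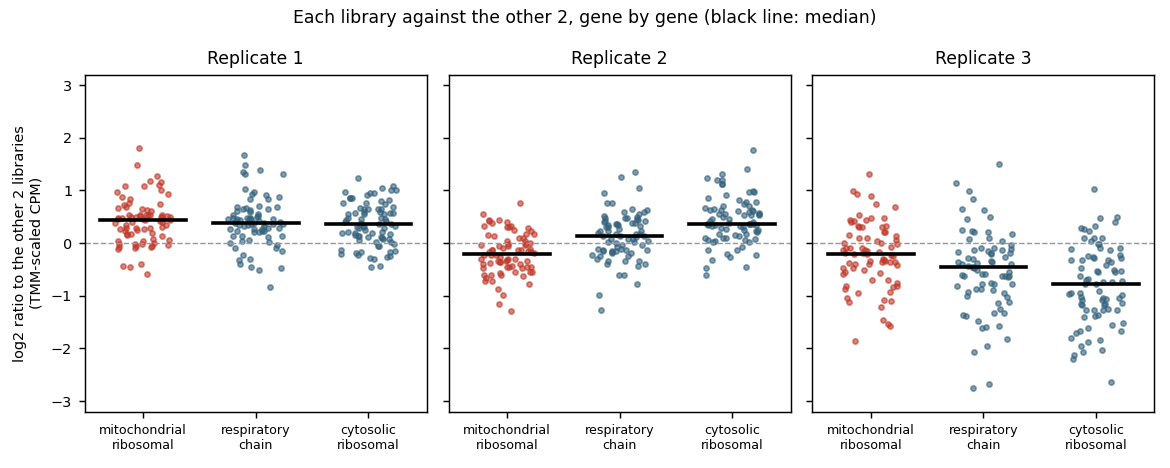
Log2 ratio of each library to the other 2 on TMM-scaled CPM, for each gene of the mitochondrial ribosomal, respiratory chain and cytosolic ribosomal sets (points) with the median (black line), 1 panel per replicate. The mitochondrial ribosomal medians are 0.44, -0.20 and -0.20, and the 3 sets are nearly level in replicate 1.

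The spread of the 78 genes between libraries was moderate. The median SD of log2 CPM, the TMM-scaled counts, was 0.34, with 0.32 for the large and 0.37 for the small subunit, beside 0.41 for all genes compared on the TMM scale. It was 0.38 for detected protein-coding genes. On log2 TPM the set was instead above all genes compared, with 0.45 against 0.39. The highest library exceeded the lowest by over 2-fold in 20 of the 78 genes (25.6%), against 36.9% of all genes compared. Among detected protein-coding genes the share was 31.5%. Of the 20, 9 were of the large subunit (17.6% of it) and 11 of the small subunit (42.3% of it). Set against genes of like abundance, as quasi-dispersion over the value fitted at that abundance by edgeR, the median was 0.61 for the set. It was 0.80 for all genes compared and 0.73 for detected protein-coding genes.

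The gene of largest spread was Mrps28, the relative of bacterial S1, with 29.9, 11.2 and 5.19 TPM in replicates 1, 2 and 3 (SD of log2 CPM 1.10). It rested on few counts, with 289, 116 and 109 in replicates 1, 2 and 3, the lowest of the set in replicates 2 and 3. Mrps24, the mitochondrial S3 protein at the entry of the messenger RNA, had 44.2, 37.1 and 8.57 TPM (SD 1.08). Its exons overlap those of Urgcp on the same strand by up to 226 bases, and Urgcp had a mean of 9.31 TPM, so the split of reads between them rests on the authors' estimate. Mrpl52 followed, with an SD of 1.00, and then Mrps14, with 55.2, 40.5 and 14.1 TPM (SD 0.97). In all 4 genes replicate 3 was the lowest library. Mrpl42, the fifth, with an SD of 0.78, instead had its lowest value in replicate 2.

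The steadiest genes were Mrps33, with 52.8, 54.1 and 49.9 TPM in replicates 1, 2 and 3 (SD 0.09), Mrpl58, with 34.2, 33.1 and 23.4 TPM (SD 0.12), and Mrps36, whose values stand above (SD 0.12). By library, the genes of highest log2 ratio to the other 2 libraries in replicate 1 were Mrps28 (1.80), Mrpl52 (1.48) and Mrps14 (1.27). In replicate 2 they were Mrps24 (0.76), Mrpl28 (0.55) and Mrpl27 (0.44), where Mrpl28 had 56.5, 62.3 and 24.7 TPM in replicates 1, 2 and 3. In replicate 3 they were Mrps15 (1.30), Mrpl42 (0.99) and Mrpl39 (0.94), where Mrpl39 had 18.6, 13.7 and 20.7 TPM. These genes were chosen by their ratio in each library, so their differences in direction do not describe the set.

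Base composition of the transcripts went with the replicate 3 ratio. Across the 78 genes, the percentage of G and C in the most abundant transcript had a Pearson correlation of -0.49 (Spearman -0.54) with the log2 ratio of replicate 3. Over the 11882 genes compared that had a value, the correlations were -0.29 and -0.29. The genes share the same libraries, so these are descriptions. The 26 genes of lowest G and C content, 41.4% to 49.9%, had a median replicate 3 ratio of 0.13, the middle 26 genes -0.20, and the 26 of highest content, 53.9% to 61.3%, -0.64. In replicate 2 the medians of the same groups were -0.32, -0.33 and -0.02, and in replicate 1 they were 0.25, 0.51 and 0.52. Mrps15, at 54.0% G and C and a ratio of 1.30, and Mrps14, at 46.3% and a ratio of -1.58, lay far from the trend. The part of base composition in the library differences was not tested.

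**Figure D4:**
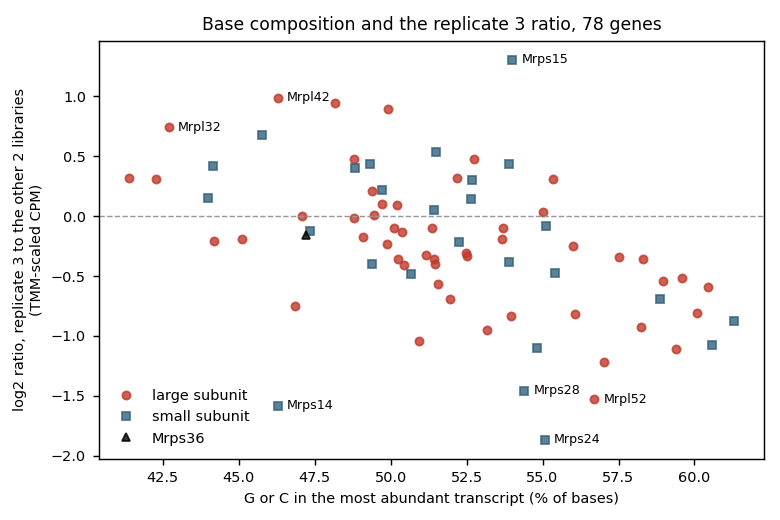
Log2 ratio of replicate 3 to the other 2 libraries on TMM-scaled CPM against the percentage of G and C in the gene's most abundant transcript, for 51 large-subunit genes (circles), 26 small-subunit genes (squares) and Mrps36 (triangle). Genes of high G and C content lie mostly below 0 (Pearson correlation -0.49, 78 genes), with Mrps15 and Mrps14 away from the trend.

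The transcripts are short. The median length of the most abundant transcript was 914 bases, against 2622 bases over all genes compared. Shorter transcripts had higher levels: log2 length and log2 mean TPM had a Pearson correlation of -0.53 (Spearman -0.45) over the 78 genes, and -0.23 (Spearman -0.20) over all genes compared. The 26 shortest, of 418 to 756 bases, had a median of 39.4 TPM, the middle 26 genes 33.6 TPM, and the 26 longest, of 1197 to 5000 bases, 22.9 TPM. Mrpl52 was the shortest at 418 bases and Mrpl19, among the lowest genes, the longest at 5000 bases. TPM itself divides by effective length, which is least certain for short transcripts.

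For most of the genes a protein-coding transcript led. In 13 of the 78, however, the transcript of highest mean TPM in the RSEM-format table was annotated as something else, against 5.90% of detected protein-coding genes. In the kallisto-format table, made directly from the reads, the number was 14, with Mrpl19 added. The same transcript led in both tables for 75 of the 78 genes. Annotated targets of nonsense-mediated decay, a pathway that degrades messages with an early stop codon, led in Mrpl3 (49.0% of the gene's TPM), Mrpl32 (85.3%), Mrps14 (82.7%) and Mrpl35. Transcripts that keep an intron led in Mrps5 (33.3%), Mrpl57, Mrps26 and Mrps25. Processed transcripts with no annotated reading frame led in Mrpl15 (50.7%), Mrpl51 (53.9%), Mrps16, Mrps35 and Mrpl47. Of these genes, 2 had over 90% of their TPM outside protein-coding transcripts in both tables. They were Mrpl32, a protein matured by a protease inside mitochondria, with 92.9% and Mrps26 with 91.3%. For the set the most abundant transcript took a median of 89.2% of the gene's TPM, and over 90% in 37 genes. The shares of all detected genes with over 90% on that transcript, or with the same one leading in both tables, were not computed. A gene's TPM in the paragraphs above includes these transcripts.

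**Figure D5:**
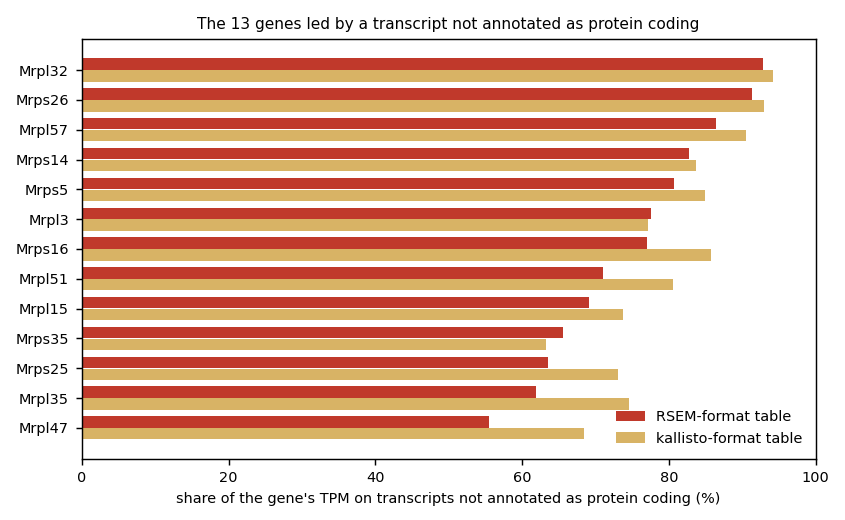
Share of the gene's TPM (mean over 3 libraries) on transcripts not annotated as protein coding, in the RSEM-format table (dark) and the kallisto-format table (light), for the 13 genes led by such a transcript in the RSEM-format table. In both tables the share is over 50% in each gene and highest in Mrpl32.

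The 2 ways of assigning reads gave like levels for all but 1 gene. Only Mrpl23, a protein of the peptide tunnel, differed by over 1.5-fold between the tables, where 2.48% of detected protein-coding genes did. In the RSEM-format table Mrpl23 (chr7:142532686-142540747, plus strand) had 38.4, 36.6 and 21.8 TPM in replicates 1, 2 and 3, and in the table of kallisto format it had 6.42, 9.03 and 5.22 TPM, a ratio of 4.63. Its processed pseudogene Mrpl23-ps1, an intronless copy (chr2:74591330-74591909, minus strand), had 57.3, 46.1 and 25.7 TPM in the RSEM-format table and 67.7, 57.0 and 40.8 TPM in the kallisto-format table. Gene and pseudogene together had a mean of 75.3 and 62.1 TPM in the RSEM-format and kallisto-format tables, a ratio of 1.21, so the tables differed in the split and little in the sum. The level of Mrpl23 is uncertain for this reason. For the set the median ratio of the tables was 1.25, against 1.21 for detected protein-coding genes. The RSEM-format value was the higher in 74 of the 78 genes, and the like share of detected genes was not computed. The other 4 pseudogenes named for genes of the set averaged under 1 TPM.

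A protein-coding gene began on the other strand, pointing away, within 1000 bases upstream of the start in 18 of the 78 genes (23.1%). The share was 11.5% of detected and 6.76% of all protein-coding genes. Pairs whose beginnings overlap, such as Mrpl46 and Mrps11, were not in this count. Some of the partners counted belong to mitochondria too. Mrps12 starts 172 bases from Sars2, the mitochondrial seryl-tRNA synthetase, and Mrps27 starts 81 bases from Ptcd2, a mitochondrial RNA-binding protein. Levels within such pairs differed widely: Mrpl49 averaged 23.6 TPM beside 994 TPM for Fau, which encodes a protein of cytosolic ribosomes, 59 bases away, and Mrpl10 averaged 25 TPM beside 0.0567 TPM for Lrrc46, 153 bases away. Mrpl32 and the proteasome subunit Psma2, 75 bases apart, averaged 43.2 and 57.6 TPM. Exons of 33 genes (42.3%) overlapped exons of another gene, against 38.3% of detected protein-coding genes. For 20 of the 78 (25.6%) an overlapping gene had a mean of at least 1 TPM, against 19.7%. Both shares are close to those of detected protein-coding genes. Mrpl46 of the large subunit and Mrps11 of the small subunit overlapped each other on opposite strands by up to 173 bases, with means of 17.2 and 16.7 TPM. Mrpl43 overlapped Twnk, the mitochondrial DNA helicase, by up to 358 bases. The longest overlaps were of Mrps25 with Nr2c2, up to 3533 bases, and of Mrpl19 with Gcfc2, up to 1962 bases, both on opposite strands. Mrpl47, with a mean of 9.20 TPM, overlapped Ndufb5, with 72.7 TPM, on the opposite strand by up to 530 bases. Mrpl19 and Mrpl47 were among the lowest genes of the set, but Mrps25 averaged 21.1 TPM. Mrps30, the lowest gene, overlapped B430218F22Rik, which had only 0.1 TPM. These genes were chosen after seeing values, and a link between overlap and level was not tested. Whether counting used strand is not given in the sources used here, so reads in these overlaps are uncertain.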

How the data were processed

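RNA of 3 libraries of 1 group was used. Per the deposited file lists, the values refer to build mm10 and GENCODE M21; gene tables in RSEM format were made from transcriptome alignments and kallisto-format tables directly from reads. No source used here names the aligner, the program versions or the strandedness.

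Expected counts and posterior mean counts per gene, and estimated counts per transcript, were deposited by the authors without normalization. TPM, per the file headers, were deposited by the authors per effective length, scaled to the same sum per library.

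Expected counts were rounded. Genes passing filterByExpr were scaled by TMM in edgeR 4.0.16 (limma 3.58.1, R 4.3.3), and log2 CPM (counts scaled to library size) used a prior count of 0.5. Quasi-dispersions came from glmQLFit with an intercept only. Entries naming no gene (0.131%, 0.122% and 0.0843% of counts in replicates 1, 2 and 3) were left out. DESeq2 1.42.0 size factors were an alternative. Scaling was tested on simulated data. The simulated counts had less spread between libraries than these data and, apart from a set of changed genes, the same composition in each library. They cannot show how well these libraries were scaled. Tables were summarised with Python 3.11.15 and pandas 2.3.3. Ratios of the RSEM-format to the kallisto-format values used a pseudocount of 0.1 TPM.

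With 1 group there was no contrast, so no p-value was computed. Depth limits the precision of single genes, from 109 counts upward; differences between libraries were read against the SD over the 3 libraries. Proteins with a bacterial counterpart and the other lists were assigned from textbook knowledge. Any gene of the set could be named; values in full were given for the 6 highest and 4 lowest of each subunit, the 5 most and 3 least variable, the 3 highest ratios in each library, members led by a transcript that is not protein coding (the 6 most abundant), those whose tables differ, and those of known place in the ribosome. Of the other lists the highest and lowest gene were named. Members and lists were chosen with earlier results of these data known, and overlap partners and figure labels after seeing values. Alternatives were other scalings, thresholds, pseudocounts, the kallisto-format and posterior mean values, TPM without mitochondrially encoded genes, their nuclear copies and ribosomal RNA, and leaving out each library. Mrps18 protein sequences were not used here.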

Additional observations from a re-analysis of the deposited data

How the results depend on the processing

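The count of detected genes, the levels, the count of genes whose tables differ and the count led by a transcript that is not protein coding kept their values or stayed within the spread between libraries, or within 1.5 times for counts, under every alternative run. The median level ranged from 25.2 TPM (kallisto-format values) to 39.5 TPM (without mitochondrial genes, their copies and ribosomal RNA), and 69 of the 78 genes passed 10 TPM. With 1 library left out, the shift of the genes in replicate 3 ranged from -0.42 without replicate 2 to 0.0037 without replicate 1; there replicates 2 and 3 were nearly level, so the shift of both rests on replicate 1. On log2 TPM it was -0.51 with pseudocount 1 and -0.53 with pseudocount 0.1. In replicate 2 it ranged from -0.39 to -0.0037 with 1 library left out, and in replicate 1 from 0.39 to 0.42. On TPM, 8 genes were highest in replicate 3, not 20. The quasi-dispersion relative to genes of like abundance ranged from 0.40 to 0.46 with 1 library left out, where all genes compared had 0.44 to 0.54; without replicate 2 the genes (0.46) were not below all genes compared (0.44). The cause of these changes was not tested. Of the single genes' mean TPM, 19 moved beyond their SD in the kallisto-format table, 24 in TPM without mitochondrial genes, their copies and ribosomal RNA, and 1 in posterior mean values. For Mrps28, the gene of fewest counts in replicates 2 and 3, the quasi-dispersion was 3.46 times the value fitted at its abundance. The part of depth in its spread was not tested. No paired analysis was possible because there was only 1 group.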

Other observations

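The partners of the mitochondrial ribosome did not all share its pattern over the libraries. The 12 translation factors had a median log2 ratio of 0.00, -0.16 and 0.22 in replicates 1, 2 and 3, where the mitochondrial ribosomal protein genes had 0.44, -0.20 and -0.20. The 27 assembly and ribosomal RNA modification genes had 0.35, 0.02 and -0.35, the 17 synthetases 0.49, -0.16 and -0.33, and the 6 genes of transcription and RNA stability 0.45, -0.05 and -0.43. Some genes of these lists had spreads near those of the most variable ribosomal protein genes. Tsfm, the exchange factor of the elongation factor Tufm, had 17.3, 10.8 and 3.92 TPM, and Rcc1l, an assembly factor, had 9.91, 5.73 and 2.17 TPM in replicates 1, 2 and 3. The SD of log2 CPM was 1.00 for Tsfm and 0.94 for Rcc1l, beside 1.10 for Mrps28. Gfm1, the elongation factor that moves the ribosome along, had 36.7, 20.2 and 35.7 TPM, low in replicate 2 as were Mrpl42 and Ptcd3, whose values in replicates 1, 2 and 3 were 26.9, 11.0 and 26.7 TPM for Ptcd3. Tsfm, Rcc1l and Gfm1 were chosen after their values were seen. With 1 group these differences were not tested.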
